A study of Mus musculus with 36 samples.

Results

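The Fos and Jun family supplies the subunits of AP-1, and 7 genes of it (Fos, Fosb, Fosl1, Fosl2, Jun, Junb and Jund) were followed here through 36 mouse forebrain arrays. Members were all probe sets whose platform gene symbol was one of these names. They came to 11 of 45101 probe sets and to 7 of the 18193 genes on the array. Fosl1, Fosl2, Jun and Jund each had a pair of probe sets, of which the one with the higher mean over all arrays is called the first and is the one meant unless a second is named. The first probe sets were 1423100_at (Fos), 1422134_at (Fosb), 1417488_at (Fosl1), 1437247_at (Fosl2), 1417409_at (Jun), 1415899_at (Junb) and 1449117_at (Jund), and the second ones 1417487_at (Fosl1), 1422931_at (Fosl2), 1448694_at (Jun) and 1440265_at (Jund). Dim probe sets, with a mean under the 40th percentile in both fractions, were left out, which kept all 11 of the family among the 28768 tested.

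The arrays came from 18 adult C57BL/6 mice heterozygous for Cnp–eGFP-L10a, a tagged ribosomal protein made under the promoter of the oligodendrocyte gene Cnp, and animals of every group carried it. Sleep deprived mice, numbered 6 to 11 in the labels, had been awake for most of the dark phase and were then kept awake by unfamiliar objects for 4 h of the light phase. Waking mice, 1 to 6, were killed at about 3 to 5 am after a window of 6 to 7 h of which at least 70% was spent awake, and sleeping mice, also 1 to 6, at about 3 to 5 pm after such a window with at least 75% asleep. Each of these 3 states had 6 animals, and each animal gave 1 array of the bound fraction (RNA immunoprecipitated with the tagged ribosomes, from oligodendrocytes) and 1 of the unbound fraction (the supernatant, with RNA of the remaining cell types). Waking mice differed from both other groups in time of day as well as in state (dark against light phase), and these cannot be told apart in contrasts with waking mice. No kill time was available for sleep deprived mice. A difference in clock time from sleeping mice within the light phase therefore cannot be told apart from state either. No sample came from a mouse without the tag.

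Fos family proteins cannot pair with each other and bind DNA as dimers with a Jun protein, whereas Jun proteins also pair among themselves. The dimers bind AP-1 sites and, with other partners, cyclic AMP response elements (CREs). Fos, Fosb and Junb are immediate early genes, transcribed within minutes of calcium, cyclic AMP or growth factor signals with no need for new protein. In neurons their transcripts follow activity. Jun is the main substrate of the JNK kinases, and Jund is the member with the steadiest transcript in most tissues.

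RefSeq promoters (build GRCm38.p6) were given for 6 of the 7 genes, all but Fosl1, and the 250 bases before each start were searched on both strands. The stretches printed are the last 130 bases before the start of the genes whose transcripts moved most in the bound fraction, 3 that rose and Jun, which fell. They are written 5′ to 3′ on the gene's own strand, with matches in capitals. Fos lies on chr12:85473760-85473889 on the plus strand, Fosb on chr7:19310046-19310175 on the minus strand, Fosl2 on chr5:32136342-32136471 on the plus strand, and Jun on chr4:95052223-95052352 on the minus strand. The RefSeq gene span of Fosb runs to 19310118, so part of its stretch, with its match, lies inside that span.
Fos: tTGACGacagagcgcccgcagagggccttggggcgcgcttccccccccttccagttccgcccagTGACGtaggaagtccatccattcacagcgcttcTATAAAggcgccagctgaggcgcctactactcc
Fosb: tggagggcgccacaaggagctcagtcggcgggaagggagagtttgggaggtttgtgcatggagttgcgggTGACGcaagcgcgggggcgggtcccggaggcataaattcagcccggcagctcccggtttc
Fosl2: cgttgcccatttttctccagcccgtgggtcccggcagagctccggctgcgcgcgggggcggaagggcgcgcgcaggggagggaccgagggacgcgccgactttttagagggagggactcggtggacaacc
Jun: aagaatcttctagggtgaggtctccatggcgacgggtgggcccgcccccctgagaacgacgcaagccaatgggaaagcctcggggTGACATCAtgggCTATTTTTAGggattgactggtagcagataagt

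TGACG, the core of the CRE, stood at −129 and −66 from the start of Fos, at −60 of Fosb and at −106 of Junb. These were 3 of 6 members, against 17.8% of the 32851 promoter windows searched. TGACATCA, the form of the AP-1 site described in the Jun promoter, stood at −45 of Jun, where 2.93% of windows held it, and a MEF2 site at −33, against 2.92% of windows. TATAAA stood at −33 of Fos, against 12.4% of windows. The full CRE TGACGTCA (1.55% of windows), the AP-1 site TGANTCA (6.75%) and the CArG box of serum response factor (1.47%) had no match in any member's window. Bases farther upstream than 250 were not searched, so the windows cannot tell whether a gene lacks such a site. The Fosl2 stretch held none of these letters.

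The deposited values are log2 signals. A level of 1 probe set can be compared between arrays, but levels of different probe sets cannot be set against each other. Array means had an SD of at most 0.00994 log2 within a group. They averaged 5.91 to 5.93 log2 over the groups of bound arrays and 6.34 to 6.41 over those of unbound arrays. The 7 oligodendrocyte markers summed to 15.89 to 16.10 log2 in bound arrays, against 14.10 to 14.44 in unbound arrays, and all 7 were higher in the bound fraction. The 10 neuron markers summed to 14.89 to 15.33 in bound arrays, against 15.91 to 16.06 in unbound arrays. Signal of neuron markers thus remained in bound arrays, and signal of oligodendrocyte markers in unbound arrays. Unbound changes may therefore include oligodendrocyte RNA, a part that was not tested. In 3 animals (sleep deprived 11 and waking 3 and 5) Xist was above the Y-linked genes, and in the other 15 it was below them. The labels give no sex. Results that change without these 3 animals are given with and without them.

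**Figure D1:**
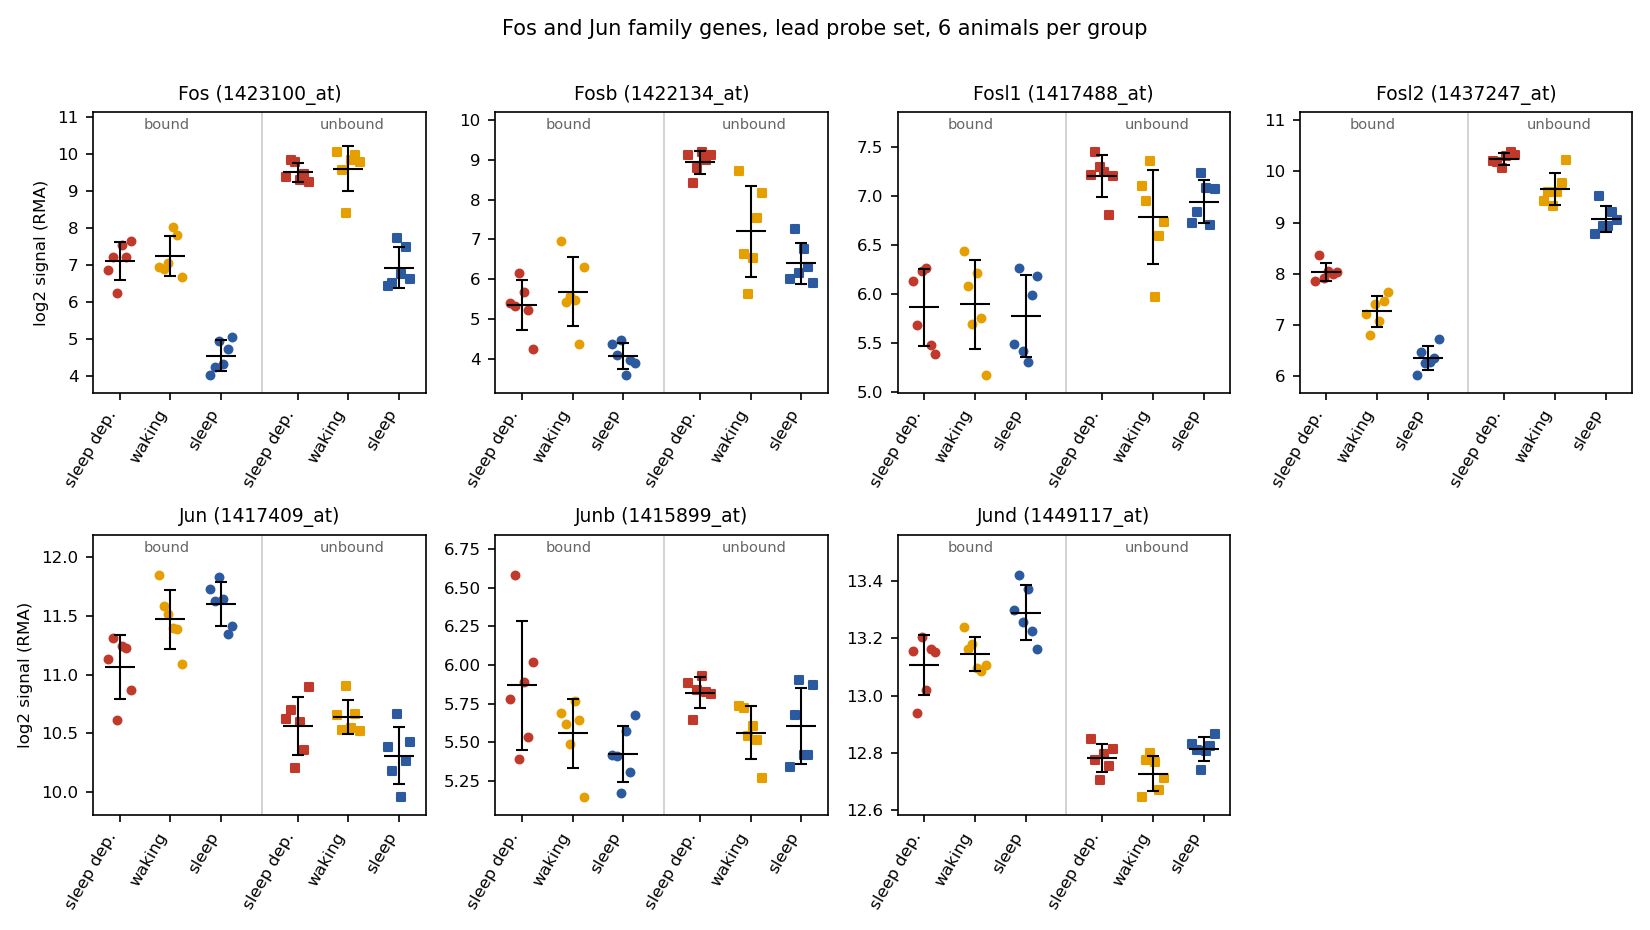
Log2 signal of the first probe set of each of the 7 genes (1 panel a gene) in the bound and the unbound fraction, by state; each point is 1 array and each bar a group mean (n = 6). Fos in sleep deprived and waking mice lies above every sleep array of the same fraction, and Jund spans a narrow range near 13 log2 in all groups.

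The first question is what distinguished mice that had been awake, spontaneously or by force, from mice that had slept. Fos signal was about 6 times as high after both kinds of wake, in the bound and in the unbound fraction. Fosb and Fosl2 also rose in the bound fraction in both comparisons. Jun and Jund, which encode their partners, did not rise there: both fell in sleep deprived mice. Junb and the first probe set of Fosl1 passed no state test.

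Fos in the bound fraction had a lowest, median and highest level of 6.24, 7.21 and 7.64 log2 in sleep deprived mice, 6.69, 7.00 and 8.02 in waking mice and 4.02, 4.51 and 5.05 in sleeping mice. No sleep deprived or waking array overlapped a sleep array. The difference was 2.57 ± 0.27 log2 (SE) for sleep deprivation minus sleep (5.94-fold, limma, Benjamini-Hochberg adjusted p = 4.68e-06) and 2.69 ± 0.27 for waking minus sleep (6.45-fold, adjusted p = 1.02e-05). Sleep deprived and waking mice overlapped and differed by −0.12 ± 0.27 (adjusted p = 0.859). The bound sleep mean of 4.55 ± 0.41 (SD, n = 6) stood just above 4.48 log2, the 95th percentile of 101 probe sets of olfactory and vomeronasal receptor and defensin genes in bound arrays, which serves here as a dim level.

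Unbound Fos had 9.26, 9.43 and 9.84 log2 (lowest, median, highest) in sleep deprived mice, 8.41, 9.82 and 10.05 in waking mice and 6.44, 6.69 and 7.73 in sleeping mice. Again no array of the awake groups reached down to a sleep array. The rise was 2.58 ± 0.26 for sleep deprivation minus sleep (5.97-fold, limma adjusted p = 6.99e-06) and 2.68 ± 0.26 for waking minus sleep (6.42-fold, adjusted p = 9.68e-06). Between sleep deprived and waking mice the difference was −0.11 ± 0.26 (adjusted p = 0.842). Ordered by mean, the level was 9.61 ± 0.61 in unbound waking, 9.51 ± 0.25 in unbound sleep deprived, 7.23 ± 0.54 in bound waking, 7.12 ± 0.51 in bound sleep deprived, 6.93 ± 0.55 in unbound sleep and 4.55 ± 0.41 in bound sleep arrays (SD, n = 6 each). Bound sleep deprived and unbound sleep arrays, which are neighbours in this order, overlapped. In bulk RNA, fewer cells with the transcript and less transcript per cell cannot be told apart.

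Fosb, whose splice form ΔFosB accumulates in neurons with repeated stimulation, differed in its order between the fractions. In the bound fraction it had 4.26, 5.37 and 6.15 log2 in sleep deprived mice, 4.38, 5.54 and 6.96 in waking mice and 3.60, 4.04 and 4.49 in sleeping mice. One array of each awake group lay within the sleep range, and all 6 of each lay above the sleep mean of 4.07, which was itself below the dim level of 4.48. Fosb was called higher than in sleep in sleep deprived (limma adjusted p = 0.0171) and in waking mice (adjusted p = 0.00558). With sleep arrays raised to the dim level where they lay below it, the rise was at least 1.83-fold in sleep deprived and at least 2.32-fold in waking mice. Sleep deprived and waking mice did not separate there (−0.35 ± 0.34, adjusted p = 0.63).

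Unbound Fosb had 8.41, 9.05 and 9.18 log2 in sleep deprived mice, 5.62, 7.09 and 8.71 in waking mice and 5.92, 6.24 and 7.26 in sleeping mice. All sleep deprived arrays were high, and the waking arrays spread over the range of both other groups. In sleep deprived mice Fosb rose by 2.53 ± 0.39 over sleep (5.79-fold, limma adjusted p = 0.000496) and by 1.73 ± 0.39 over waking (3.32-fold, adjusted p = 0.00893). Waking minus sleep was 0.80 ± 0.39 (adjusted p = 0.216). The lowest unbound waking array was waking 3, the lowest bound waking array waking 5 and the lowest bound sleep deprived array sleep deprived 11, the 3 animals set apart by sex-linked genes. Without them the unbound difference between sleep deprived and waking mice was 1.38 (adjusted p = 0.0533) and no longer called.

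Fosl2 encodes Fra-2 and is induced later and for longer than Fos in stimulated cells. Its first probe set, alone among those of the 7 members, was called in all 3 state contrasts of both fractions. In the bound fraction it had 7.85, 8.02 and 8.37 log2 in sleep deprived mice, 6.80, 7.32 and 7.65 in waking mice and 6.03, 6.31 and 6.74 in sleeping mice. No array of 1 state overlapped an array of another. Fosl2 rose by 1.68 ± 0.15 in sleep deprived mice over sleep (3.21-fold, limma adjusted p = 1.10e-06), by 0.91 ± 0.15 in waking mice over sleep (1.89-fold, adjusted p = 0.000976) and by 0.77 ± 0.15 in sleep deprived over waking mice (1.70-fold, adjusted p = 0.00603). With the mean of both Fosl2 probe sets in place of the first, the rises over sleep were still called, at 1.07 for sleep deprivation, and the difference between sleep deprived and waking mice was 0.14 (adjusted p = 0.593).

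Unbound Fosl2 had 10.06, 10.26 and 10.37 log2 in sleep deprived mice, 9.32, 9.59 and 10.22 in waking mice and 8.77, 9.00 and 9.52 in sleeping mice. The order of the medians was the one seen in the bound fraction, but the waking arrays overlapped both other groups. The rise was 1.17 ± 0.14 for sleep deprivation minus sleep (2.26-fold, limma adjusted p = 4.22e-05), 0.58 ± 0.14 for waking minus sleep (1.50-fold, adjusted p = 0.0138) and 0.59 ± 0.14 for sleep deprivation minus waking (1.50-fold, adjusted p = 0.0113). The last of these was not called without the 3 animals set apart by sex-linked genes (0.52, adjusted p = 0.0725) or after quantile normalization (0.47, adjusted p = 0.0595, over all arrays, and 0.46, adjusted p = 0.0550, within the fraction).

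Jun had high values in every array and moved in the other direction from Fos in the bound fraction. Its bound levels were 10.61, 11.18 and 11.32 log2 in sleep deprived mice, 11.09, 11.46 and 11.85 in waking mice and 11.35, 11.64 and 11.83 in sleeping mice. Every sleep deprived array was below every sleep array, and the waking arrays overlapped both. Jun fell in sleep deprived mice by 0.53 ± 0.13 relative to sleep (limma adjusted p = 0.0088). Waking minus sleep was −0.13 ± 0.13 (adjusted p = 0.584). Sleep deprivation minus waking was −0.40 ± 0.13 (adjusted p = 0.0717), with 6 of 6 sleep deprived arrays below the waking mean. That last difference was called without waking 6 (adjusted p = 0.0354).

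Unbound Jun had 10.21, 10.61 and 10.90 log2 in sleep deprived mice, 10.52, 10.60 and 10.90 in waking mice and 9.96, 10.33 and 10.66 in sleeping mice. These groups overlapped, and sleep deprivation minus sleep was 0.25 (limma adjusted p = 0.213). Waking minus sleep was 0.32 ± 0.12 (adjusted p = 0.097), and it was called without sleep 3 (adjusted p = 0.0432).

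Jund varied little. In the bound fraction it had 12.94, 13.16 and 13.21 log2 in sleep deprived mice, 13.09, 13.13 and 13.24 in waking mice and 13.16, 13.28 and 13.42 in sleeping mice. The groups overlapped at their edges, and all 6 sleep deprived arrays lay below the sleep mean. Jund fell by 0.18 ± 0.05 in sleep deprived mice relative to sleep (limma adjusted p = 0.018). It was not called without the intensity trend (adjusted p = 0.116) or with the mean of both Jund probe sets (−0.10, adjusted p = 0.51). Waking minus sleep was −0.14 ± 0.05 (adjusted p = 0.0746). It was called lower without sleep 6 (adjusted p = 0.0452) and under both quantile normalizations (−0.15, adjusted p = 0.0441 over all arrays and 0.0426 within the fraction). Its 18 unbound arrays lay between 12.64 and 12.87, and no contrast was called.

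Junb, an immediate early gene whose product often restrains Jun, had 5.39, 5.84 and 6.58 log2 in bound sleep deprived, 5.14, 5.63 and 5.77 in bound waking and 5.17, 5.41 and 5.68 in bound sleep arrays. The groups overlapped. Sleep deprivation minus sleep was 0.44 ± 0.18 (limma adjusted p = 0.101), and it was called at adjusted p = 0.0496 without sleep deprived 8. In unbound arrays it had 5.64, 5.83 and 5.93 in sleep deprived, 5.27, 5.57 and 5.73 in waking and 5.34, 5.55 and 5.90 in sleeping mice, all overlapping, and the same contrast gave 0.22 ± 0.13 (adjusted p = 0.335). The unbound levels were close above 5.04 log2, the dim level of unbound arrays, so a change in Junb could be missed there.

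Fosl1, which encodes Fra-1, had 5.38, 5.91 and 6.26 log2 in bound sleep deprived, 5.17, 5.92 and 6.44 in bound waking and 5.30, 5.74 and 6.26 in bound sleep arrays by its first probe set. The ranges almost coincided, and no bound or unbound state contrast of this probe set was called (adjusted p from 0.174 upward).

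The counts of called genes have to be read against all probe sets. In the bound fraction 3 of the 7 first probe sets were called higher and 2 lower for sleep deprivation minus sleep, where 14.7% of all tested probe sets were called, 8.04% higher and 6.67% lower. For waking minus sleep 3 were higher and 0 lower (1 lower, Jund, under quantile normalization), against 9.91% of all called, 5.08% higher and 4.83% lower. For sleep deprivation minus waking 1 was higher (Fosl2) and 0 lower, against 5.88% of all, 3.13% higher and 2.75% lower. Groups without overlap numbered 3, 2 and 1 of 7 in these contrasts, against 7.5%, 6.09% and 3.95% of all probe sets. The median change of the 7 was 0.44, 0.13 and −0.04 log2, against 0.00, −0.01 and 0.02 over all tested probe sets. Counts with 1 more call, from leaving out a single array, come from Jun, Junb and Jund as given above.

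Among unbound arrays 3 of 7 were higher and 0 lower for sleep deprivation minus sleep, where 7.86% of all were called, 4.72% higher and 3.14% lower. For waking minus sleep they were 2 and 0, against 7.89% of all, 1.77% higher and 6.12% lower. For sleep deprivation minus waking they were 2 and 0, against 10.5% of all, 8.81% higher and 1.71% lower. Groups without overlap numbered 3, 1 and 0 of 7, against 5.2%, 4.64% and 5.69% of all probe sets. The medians of the 7 were 0.26, 0.32 and 0.26, against 0.02, −0.09 and 0.11 over all. The unbound waking arrays were thus shifted as a whole against both other groups, and quantile normalization brought the last 2 medians over all to 0.00. Contrasts within a fraction share their groups, so their counts are not independent.

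**Figure D2:**
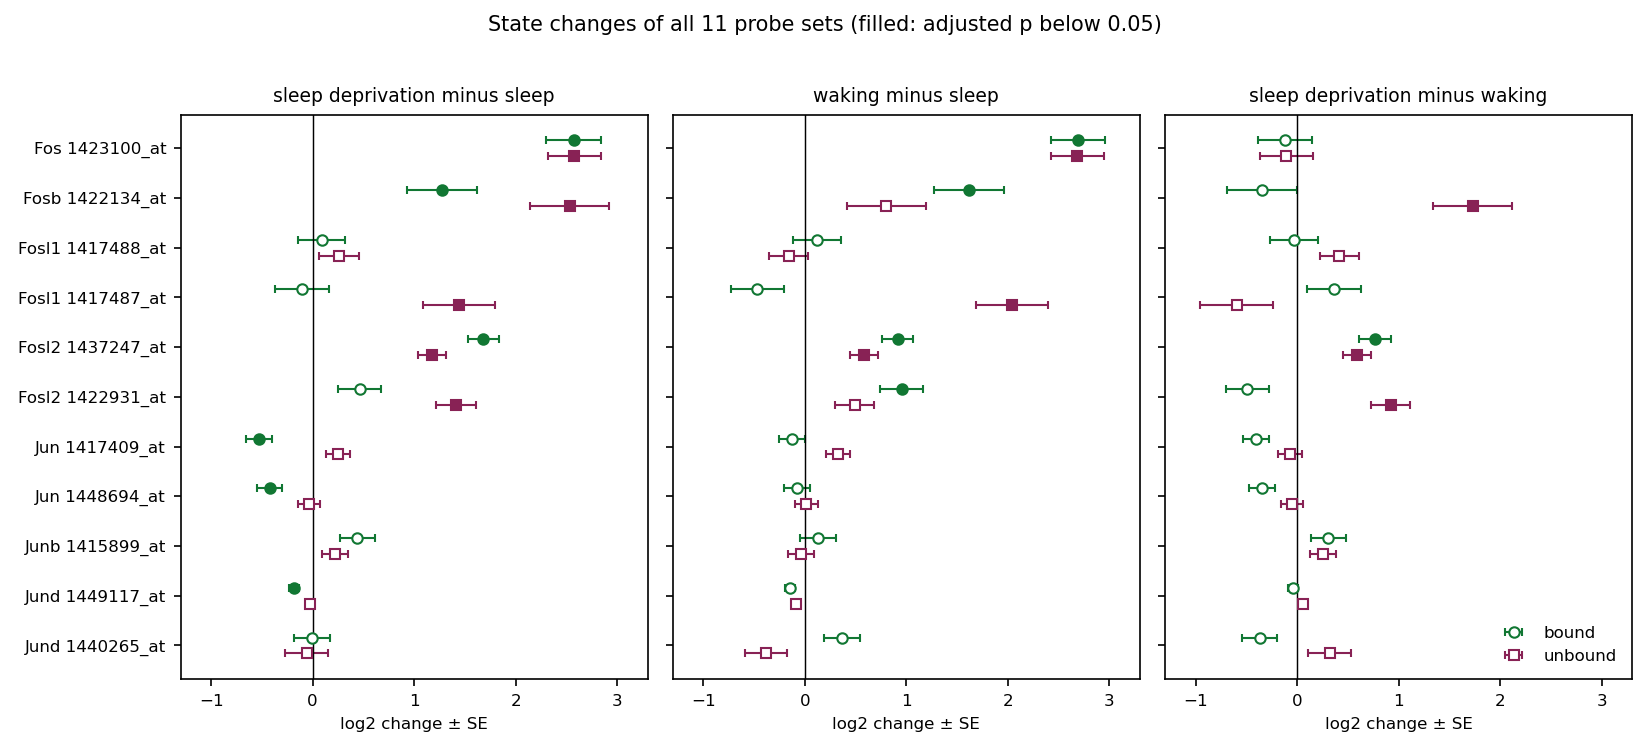
Log2 change ± SE of all 11 probe sets, named by gene and probe set, for the 3 state contrasts (n = 6 against 6 arrays), with the bound fraction as circles and the unbound fraction as squares, filled where the adjusted p was below 0.05. Fos lies near 2.6 against sleep in both fractions for both awake groups, and both Jun probe sets lie below 0 in the bound fraction, filled for sleep deprivation minus sleep.

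The second probe sets did not always repeat the first. Over the 10 contrasts fitted, the pair of probe sets agreed in direction in 9 for Jun, 7 for Fosl2, 7 for Jund and 3 for Fosl1. Jun's second probe set also fell in sleep deprived mice relative to sleep in the bound fraction, by 0.42 ± 0.13 (limma adjusted p = 0.028), with 9.46, 10.10 and 10.33 log2 in sleep deprived and 10.27, 10.43 and 10.66 in sleeping mice. All 6 arrays were below the sleep mean, although the groups overlapped. This call was lost without sleep deprived 8, without sleep 2 or without sleep 6, and without the 3 animals set apart by sex-linked genes (adjusted p up to 0.0621).

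Fosl2's second probe set did not repeat the order of the first in the bound fraction. In the bound fraction it had 4.77, 5.17 and 5.61 log2 in sleep deprived mice, 5.30, 5.69 and 6.16 in waking mice and 4.04, 4.79 and 5.22 in sleeping mice, so that the waking arrays were highest. Waking minus sleep was 0.95 ± 0.21 (limma adjusted p = 0.00755, 0.0508 without the 3 animals), and sleep deprivation minus sleep was 0.46 ± 0.21 (adjusted p = 0.157). Unbound arrays had 7.76, 7.97 and 8.68 in sleep deprived, 6.80, 7.11 and 7.44 in waking and 6.11, 6.58 and 7.25 in sleeping mice, the order of the first probe set. It rose there by 1.41 ± 0.19 over sleep (adjusted p = 0.00018) and by 0.92 ± 0.19 over waking (adjusted p = 0.00611, 0.0559 without the 3 animals) in sleep deprived mice.

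Fosl1's probe sets agreed least often. In unbound arrays the second had 3.95, 5.94 and 6.91 log2 in sleep deprived mice, 5.89, 6.19 and 7.05 in waking mice and 3.91, 4.36 and 4.86 in sleeping mice. All waking arrays and 5 of 6 sleep deprived arrays lay above the sleep mean. It was called higher than in sleep in sleep deprived (limma adjusted p = 0.0167) and in waking mice (adjusted p = 0.00189), while the first probe set gave 0.26 for sleep deprivation minus sleep (adjusted p = 0.461) and −0.16 ± 0.19 for waking minus sleep (adjusted p = 0.665). The sleep mean of 4.35 was below the unbound dim level of 5.04, and against that level the rise was at least 1.69-fold in sleep deprived and at least 2.55-fold in waking mice. All bound groups were below the bound dim level of 4.48, with means of 3.17 to 3.64, so no bound change could be measured. Which of the 2 probe sets follows the Fosl1 transcript cannot be told from these values. Jund's second probe set, with 6.29 to 7.71 log2 over all arrays, was called in no contrast. Under quantile normalization over all arrays it was called higher in the bound fraction (0.61, adjusted p = 2.77e-05), and its fraction difference of waking minus sleep (0.74, adjusted p = 0.0858) was called without sleep 1 or without waking 2.

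**Figure D3:**
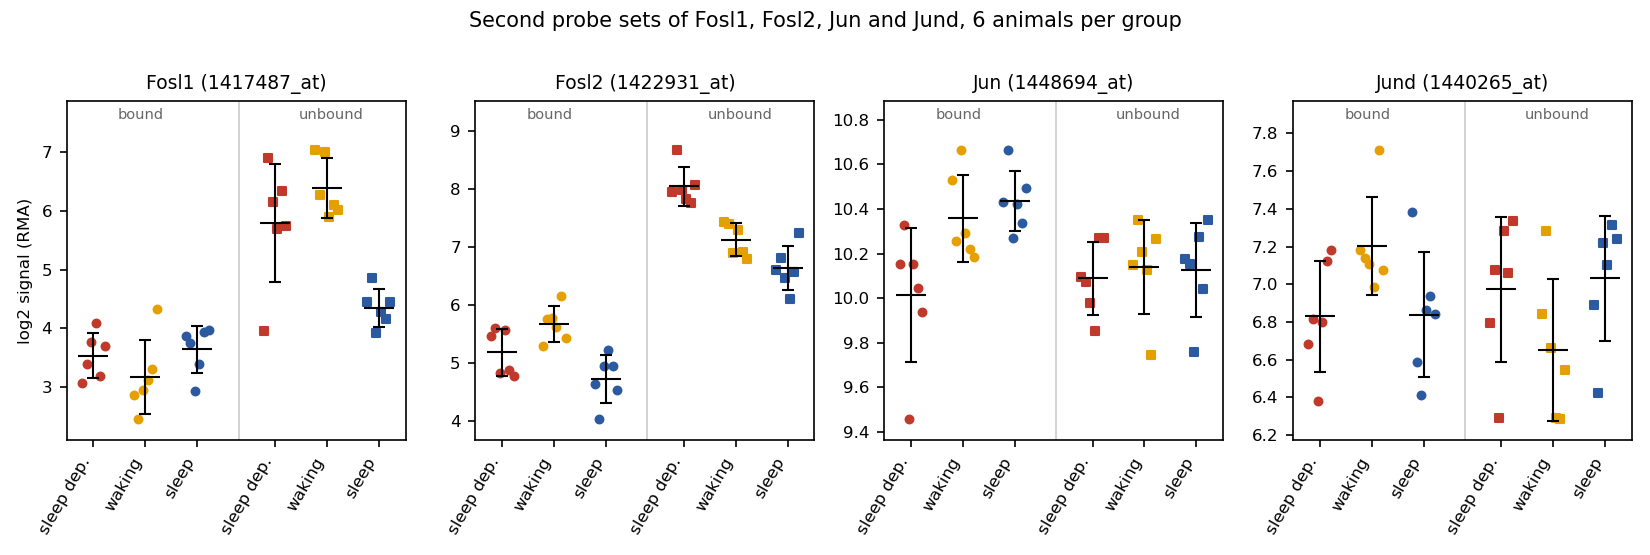
Log2 signal of the second probe sets of Fosl1, Fosl2, Jun and Jund by fraction and state; each point is 1 array and each bar a group mean (n = 6). Fosl1 is high in unbound waking and in 5 of 6 unbound sleep deprived arrays, and Fosl2 is highest in waking mice in the bound fraction and in sleep deprived mice in the unbound fraction.

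Each animal's bound array was set against its own unbound array. Here 4 members were lower in the bound fraction, 2 were higher and Junb was not called, against 83.3% of all tested probe sets called, 23.8% higher and 59.4% lower, with a median over all of −0.40 log2. The difference had the same sign in all 18 animals for 4 of 7, against 43.1% of all. Fos was lower by 2.38 ± 0.14 log2 (SE, n = 18 animals, limma adjusted p = 2.57e-12), Fosb by 2.48 ± 0.18 (adjusted p = 9.68e-11) and Fosl2 by 2.44 ± 0.07 (adjusted p = 3.19e-17), each in 18 of 18 animals, with Fosb in bound sleep arrays below the dim level. The first probe set of Fosl1 was lower by 1.13 ± 0.13 (adjusted p = 6.05e-08) in 17 of 18. Relative to the median of all probe sets these Fos family differences remain below 0.

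The Jun genes lay on the other side. Jun was higher in the bound fraction by 0.88 ± 0.06 (limma adjusted p = 4.20e-11) in 17 of 18 animals and Jund by 0.41 ± 0.03 (adjusted p = 9.01e-12) in 18 of 18, while the second probe sets gave 0.15 ± 0.06 for Jun (adjusted p = 0.0317) and 0.07 ± 0.10 for Jund (adjusted p = 0.523). The Jun second probe set was not called when sleep deprived 6, 7 or 9, waking 1, 3 or 5, or sleep 2 or 3 was left out (adjusted p up to 0.0681), or without the 3 animals set apart by sex-linked genes (adjusted p = 0.0940). Junb was at −0.04 ± 0.09 (adjusted p = 0.647), and at 0.65 (adjusted p = 6.56e-07) once all arrays were brought to 1 distribution, a setting in which the median of all probe sets was 0.05 in place of −0.40. The other 6 first probe sets kept their direction in that setting. The neuron markers also fell in the bound fraction (10 of 10), and the oligodendrocyte markers rose (7 of 7). The part of leftover neuronal RNA in the bound levels of the Fos genes was not tested.

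**Figure D4:**
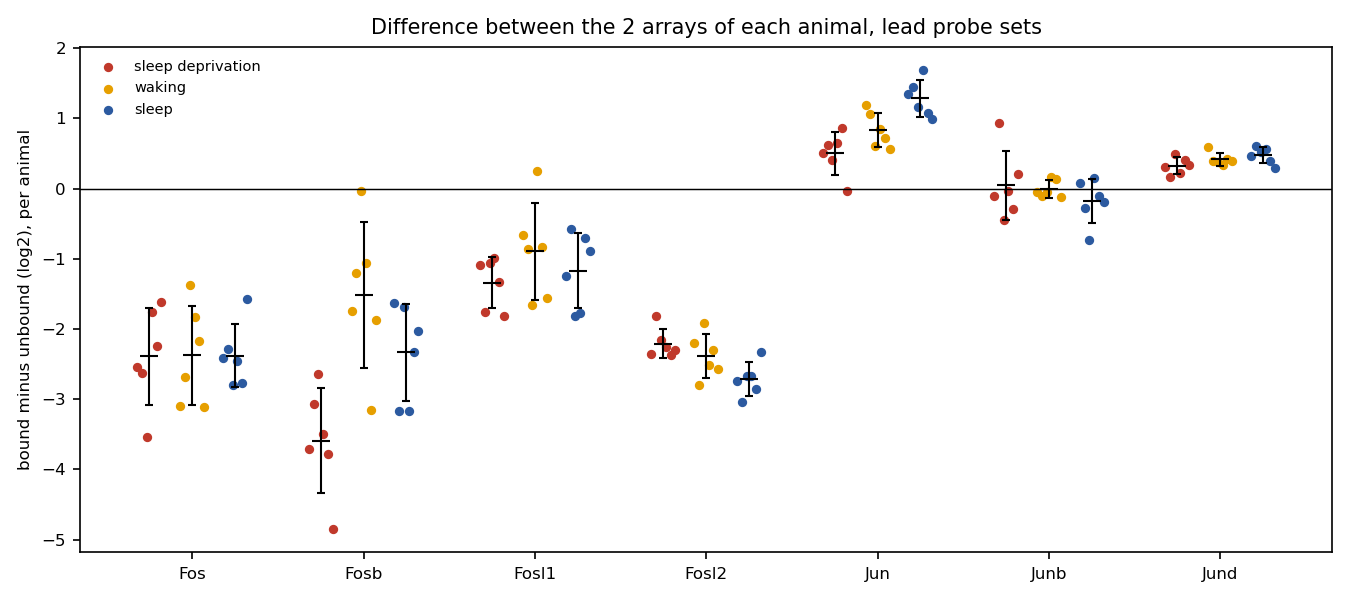
Bound minus unbound log2 signal of the first probe set of each gene, 1 point per animal, by state; bars are means of 6 animals. Fos, Fosb and Fosl2 lie below 0 in all 18 animals, and Jun averages 0.50 in sleep deprived, 0.83 in waking and 1.29 in sleeping mice.

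Whether a state change differed between the fractions was tested on these per-animal differences. No such difference was called for Fos: its bound minus unbound value averaged −2.39 ± 0.69 in sleep deprived, −2.38 ± 0.71 in waking and −2.38 ± 0.45 in sleeping mice (SD, n = 6 each). The difference of its sleep deprivation response between fractions was −0.01 ± 0.34 log2 and that of its waking response 0.01 ± 0.34 (limma adjusted p = 0.995 for both). Bound sleep arrays of Fos reached down to 4.02 log2, below the bound dim level of 4.48, so its bound response may be understated.

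Jun's gap between the fractions was 0.50 ± 0.30 in sleep deprived, 0.83 ± 0.25 in waking and 1.29 ± 0.26 in sleeping mice (SD). Sleep deprivation minus sleep was lower in the bound than in the unbound fraction, with a difference of −0.78 ± 0.15 (SE, limma adjusted p = 0.00376). Jun's second probe set gave −0.39 ± 0.15 for the same difference (adjusted p = 0.139) and was called in no alternative or fit with an animal left out. By first probe sets Jun was the 1 member called there, where 6.38% of all probe sets were called, 3.23% higher and 3.15% lower. Fosb averaged −3.59 ± 0.75 in sleep deprived, −1.51 ± 1.04 in waking and −2.33 ± 0.69 in sleeping mice. For sleep deprivation minus waking its fractions differed by −2.08 ± 0.45 (adjusted p = 0.0113), and Fosb was the 1 member called, against 5.05% of all, 1.36% higher and 3.69% lower. For waking minus sleep 0 of 7 were called, against 6.08% of all, 4.36% higher and 1.72% lower, and the mean of both Fosl1 probe sets was called (−1.11, adjusted p = 0.0262). Among the second probe sets, the fit called Fosl1 for its sleep deprivation response (adjusted p = 0.0368) and its waking response (adjusted p = 0.00195). Since its bound arrays were below the dim level, no size of a difference between the fractions could be measured. The call for sleep deprivation was lost when sleep deprived 7, 8, 10 or 11, or sleep 1, 3, 4, 5 or 6 was left out (adjusted p up to 0.0808), without the 3 animals set apart by sex-linked genes, and after quantile normalization over all arrays (adjusted p up to 0.0600). Fosl2's second probe set differed for sleep deprivation minus waking (−1.41 ± 0.31, adjusted p = 0.014, and 0.136 without those 3 animals).

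Within a state, an animal with more Fos in 1 fraction did not measurably have more in the other. Deviations from the group means in the bound and the unbound array of the same animal correlated by r = 0.19 (permutation p = 0.501) and rho = 0.12 (permutation p = 0.63) over 18 animals, and by r = 0.06 without the 2 animals farthest from the median. The highest of the 7 members was Fosl2, with r = 0.45 (permutation p = 0.117) and rho = 0.47 (permutation p = 0.0833), and r = 0.24 without 2 animals. After adjustment over the 7 members these were 0.702 for both r and 0.735 and 0.583 for rho.

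Genes with the pattern most like each member were taken by Pearson's r over the 18 arrays of a fraction, among 13105 genes. The arrays share their states, so these values describe likeness and carry no test. In the bound fraction Fos was most like Egr1 (0.94), Chmp5 (0.93), Ap2m1 (0.93), Egr2 (0.93) and Khdc4 (0.92). Over unbound arrays the genes were Egr2 (0.94), Hoxc6 (0.90), Egr1 (0.90), Dusp6 (0.87) and Nr4a1 (0.86). Egr1, Egr2 and Nr4a1 encode immediate early transcription factors, and Dusp6 a phosphatase of ERK that is itself induced by ERK signalling.

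Fosl2 was most like Ch25h (0.93), Sox7 (0.92) and Zcchc24 (0.91) in the bound and Homer1 (0.92), Mobp (0.91) and Nr4a1 (0.90) in the unbound fraction. Fosb was most like Homer1 (0.91), Dio2 (0.89) and Egr3 (0.89) in the unbound fraction, and Yipf6 (0.85) led in the bound. Homer1 encodes a postsynaptic scaffold with an activity-induced short form, and Mobp a myelin protein. Jun was most like Pak7 (0.90) and Prox1 (0.87) in the bound fraction. Jund was most like H1f4 (0.82) and Cirbp (0.81), which encodes a cold-inducible RNA-binding protein, in the bound fraction. Among the members, Fos was like Fosl2 in both fractions (0.80 bound, 0.74 unbound) and ran against Jund (−0.77 bound, −0.63 unbound). Its r with Jun was −0.42 in the bound and 0.50 in the unbound fraction.

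Other genes of the AP-1 pathway were taken from 5 lists. Shares of all tested probe sets called, higher and lower together, stand beside the first count of each list. Of 10 tested dimer partners (Batf, Maf and Jdp2 type proteins and others that pair with Fos or Jun), 2 were higher and 0 lower for sleep deprivation minus sleep in the bound fraction (14.7% of all called), and 2 and 0 in the unbound fraction (7.86%). Maff, a small Maf protein, rose by 1.87 ± 0.48 log2 in the bound (limma adjusted p = 0.0128) and by 1.80 ± 0.41 in the unbound fraction (adjusted p = 0.0103, with an unbound sleep mean of 4.84 below the dim level of 5.04) in sleep deprived mice over sleep. Mafk, also a small Maf, rose by 0.95 ± 0.26 in the bound fraction (adjusted p = 0.0165), and Jdp2, a repressor that pairs with Jun, by 0.61 ± 0.13 in the unbound fraction (adjusted p = 0.00678). For waking minus sleep 0 partners were called in the bound fraction and Mafk fell by 0.61 in the unbound (adjusted p = 0.0277). For sleep deprivation minus waking, Mafk rose (0.97) and Batf2 fell by 0.47 in the bound fraction, and Jdp2 rose (0.83) in the unbound. The list medians for sleep deprivation minus sleep were 0.17 in the bound and 0.01 in the unbound fraction, against 0.00 and 0.02 over all probe sets.

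Of 12 tested kinases upstream of AP-1 (the ERK, JNK and p38 modules), 0 were called in the bound fraction against sleep for sleep deprived (14.7% of all) or waking mice (9.91%). Map3k1, a kinase at the head of the JNK module, fell by 0.81 in the bound fraction in sleep deprived relative to waking mice (limma adjusted p = 0.00504). Among unbound arrays Map2k1, which encodes the ERK kinase MEK1, rose by 0.18 in sleep deprived mice over sleep (adjusted p = 0.0332) and by 0.19 over waking, and Mapk9, a JNK gene, fell by 0.26 in waking mice (adjusted p = 0.0231).

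Of 16 tested factors that bind the Fos promoter, with their coactivators, 3 were higher and 0 lower in the bound fraction for sleep deprivation minus sleep (14.7% of all called), and 1 and 0 for waking minus sleep (9.91%). Creb1, which binds the CRE whose core is shown in the Fos and Fosb stretches, rose by 0.77 ± 0.11 in sleep deprived (limma adjusted p = 0.000118) and by 0.51 ± 0.11 in waking mice (adjusted p = 0.00645) over sleep. The other calls were Mrtfb (0.42) and Ep300 (0.51). Unbound Creb1 rose by 0.29 (adjusted p = 0.0321) and Srf, serum response factor, by 0.43 (adjusted p = 0.0282) in sleep deprived mice over sleep. Creb1's rise was larger in the bound fraction by 0.48 for sleep deprivation (adjusted p = 0.013) and by 0.43 for waking (adjusted p = 0.0262). Mef2a fell by 0.35 in unbound waking mice, and Crem rose by 0.51 in unbound sleep deprived over waking mice.

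Of 9 tested genes for turnover and binding proteins, 1 was higher and 1 lower in the bound fraction for sleep deprivation minus sleep (14.7% of all called) and 1 and 0 for waking minus sleep (9.91%). Zfp36, which encodes an RNA-binding protein that speeds the decay of AU-rich transcripts such as Fos, rose by 0.75 ± 0.13 in sleep deprived (limma adjusted p = 0.000891) and by 0.65 ± 0.13 in waking mice (adjusted p = 0.00436). Cops5, first described as a Jun coactivator, fell by 0.34 in sleep deprived mice (adjusted p = 0.0297). Unbound Fbxw7, whose ubiquitin ligase takes Jun as a substrate, fell by 0.22 in waking mice relative to sleep (adjusted p = 0.00434). It rose by 0.20 in sleep deprived over waking mice, as did Tob1 (0.52).

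Of 15 tested genes described as AP-1 targets, 0 rose in the bound fraction in any state contrast, and 1 fell for sleep deprivation minus sleep (14.7% of all called) and for waking minus sleep (9.91%). Cd44, a hyaluronan receptor, fell by 0.91 ± 0.21 in sleep deprived (limma adjusted p = 0.00741) and by 0.86 ± 0.21 in waking mice (adjusted p = 0.0155) relative to sleep, with bound means of 4.08 log2 in sleep deprived and 4.13 in waking mice, below the dim level, and 4.99 in sleeping mice. Unbound Vgf, a neuropeptide precursor, rose by 0.52 in sleep deprived mice over sleep (adjusted p = 0.00871) and Nts, the neurotensin precursor, by 0.88 over waking (adjusted p = 0.00128). The list medians in the bound fraction were 0.06 for sleep deprivation minus sleep and −0.16 for waking minus sleep, against 0.00 and −0.01 over all.

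Cell type markers also changed with state. Of the 7 oligodendrocyte markers in the bound fraction, 3 were higher and 1 lower in sleep deprived mice over sleep (14.7% of all probe sets called), 1 and 3 in waking mice over sleep (9.91%), and 2 and 0 in sleep deprived over waking mice (5.88%). Opalin, a myelin membrane protein gene, fell by 0.88 in sleep deprived and by 0.77 in waking mice relative to sleep, and Mobp rose by 0.40 in sleep deprived mice (limma adjusted p = 1.28e-05, 0.000141 and 0.000452). Their summed bound signal had medians of 16.05 log2 in sleep deprived, 15.92 in waking and 16.05 in sleeping mice.

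Of the 10 neuron markers in the bound fraction, 1 was higher and 1 lower in sleep deprived mice over sleep (14.7% of all probe sets called) and 0 and 0 in waking mice (9.91%), with list medians of 0.04 and 0.06. Their summed bound signal had medians of 15.19 log2 in sleep deprived, 15.13 in waking and 15.04 in sleeping mice, with overlapping ranges. Of 6 astrocyte markers 0 were called in any state contrast (5.88% to 14.7% of all), with bound medians of −0.23 for sleep deprivation minus sleep and 0.06 for waking minus sleep. Of 6 microglia markers 0 were higher and 1 lower (P2ry12) in the bound fraction for sleep deprivation minus sleep (14.7% of all called), with a list median of −0.10, and 0 were called for waking minus sleep (9.91%), with a median of 0.15. For sleep deprivation minus waking 0 were higher and 1 lower (Cx3cr1, 5.88% of all called), with a median of −0.58. The part of these shifts in the family's bound results was not tested.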

How the data were processed

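The authors deposited log2 signals, 1 for each probe set of an array. Per the submitters' processing notes the tool was RMA, whose version and the arrays it was run on together are not given in the sources used here. No further normalization was applied. Gene names came from the platform annotation: 34945 probe sets named 1 gene, 932 several and 9160 none, 64 were controls, and 34741 were checked by Entrez identifier, which changed 0 symbols. Members and gene lists were chosen with earlier results of these data known.

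Linear models were fitted in limma 3.58.1 under R 4.3.3 (with data.table, version 1.17.8) with an intensity trend. State contrasts came from a group-means model of the 18 arrays of a fraction. Fractions were compared on per-animal differences, since an animal's fractions carry 1 number in the labels. The 2 arrays of an animal deviated together by r = 0.00712 to 0.0876 (mean 0.0486, against −0.00273 between animals). Waking and sleeping arrays of 1 fraction with the same number, from different animals, did so to a similar degree (mean 0.0574 bound, 0.0365 unbound). The mean values alone therefore do not single out the animal. Among the 18 unbound arrays, the one most like a bound array was that of its own animal in 10 of 18 animals. The filter stood at 4.47 log2 (bound) and 5.18 (unbound). Calls were made at 0.05 after Benjamini-Hochberg adjustment over 28768 probe sets. The number of arrays limits the precision. Pathway genes are named where called in a state contrast, each by its probe set with the highest mean. Likeness used the nearest 5 genes to Fos and 3 to the others, not all named. The fits were tested on simulated data. Alternatives were other normalizations, no filter, 1 or the mean of all probe sets per gene, no trend, replicate blocks and arrays left out. Figures used Python 3.11.15, pandas 2.3.3, numpy 2.4.6 and matplotlib 3.10.9.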

Additional observations from a re-analysis of the deposited data

Results flagged for a closer look

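Fos in the unbound fraction of waking 3 stood at 8.41 log2, the lowest of 6 waking arrays and farther from its nearest neighbour at 9.58 than the spread of the others. Gaps wider than the spread of the others also occurred in other groups. Dixon's test divides the gap by the range of the group, which gave 0.71 for waking 3. It was the 1 array above the critical value of that test among 42 groups of 6, where chance gives about 1 in 20. It still lay above every unbound sleep array.

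Changes that differed between the bound and the unbound fraction by limma's test on per-animal differences were as follows. Fosb differed by −2.08 log2 for sleep deprivation minus waking, and Jun by −0.78 for sleep deprivation minus sleep. The second probe set of Fosl1 gave fitted differences of −1.55 for sleep deprivation minus sleep and −2.51 for waking minus sleep. Its bound levels were below the dim level in all groups, so these are no measured sizes. The second probe set of Fosl2 differed by −1.41 for sleep deprivation minus waking, while its first probe set gave 0.18 (adjusted p = 0.597).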

How the results depend on the processing

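Of the values for single members, 494 kept direction and side of the threshold in alternatives other than leaving out an array, 23 changed sign, 10 became called (3 of them with a changed sign) and 8 were no longer called. When 1 array or animal was left out 846 were kept, 32 changed sign, 4 became called and 0 were no longer called. The called rises of Fos and Fosb over sleep, the fall of bound Jun in sleep deprived mice (adjusted p = 0.00564 to 0.0322), and the fraction differences of Jun (0.00162 to 0.0107) and Fosb (0.00433 to 0.0185) were called in all alternatives run. The mean of probe sets rests on probe sets that disagree; the causes of the other changes were not tested.

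Members called for sleep deprivation minus waking in the bound fraction numbered 2 instead of 1 under both quantile normalizations and with no filter (Jun added, adjusted p = 0.0451, 0.0445 and 0.0386), and 0 with the mean of probe sets. In the unbound fraction they numbered 1 instead of 2 under both quantile normalizations and 0 without the 3 animals set apart by sex-linked genes. Fraction differences for waking gave 1 instead of 0 with the mean of probe sets. Leaving out 1 array gave 3 to 4 members for bound waking minus sleep, 5 to 6 for bound sleep deprivation minus sleep, 1 to 2 for bound sleep deprivation minus waking and 2 to 3 for unbound waking minus sleep, with the other counts constant.

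Waking and sleeping mice share replicate numbers that name different animals (deviations correlated by 0.000663 to 0.0851 in bound and 0.00669 to 0.0823 in unbound arrays). With the number as a replicate block, unbound waking minus sleep had 1 member instead of 2 (Fosl2 at adjusted p = 0.0526) and 1063 instead of 2269 probe sets, and Jund was called in bound arrays (adjusted p = 0.0437), as it was under both quantile normalizations (0.0441 and 0.0426). Without the pairing of fractions by animal no call of a first probe set changed.

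Values that changed sign had no call as reported above. Differences of the Fos response between fractions were −0.40 (quantile over all arrays), −0.083 (quantile within a fraction) and −0.30 (without the 3 animals) for waking, 0.013 (quantile within a fraction) for sleep deprivation, and 0.11, 0.10 and 0.14 in those 3 settings for sleep deprivation minus waking. Junb was 0.054 for unbound waking minus sleep under both quantile normalizations and 0.65 (called, adjusted p = 6.56e-07) for bound minus unbound over all arrays, and Jund was −0.054 and −0.055 for unbound sleep deprivation minus waking under them. With the mean of probe sets, Fosl1 was −0.17, −0.0079 and 0.17 in the bound contrasts of waking minus sleep, sleep deprivation minus sleep and sleep deprivation minus waking. In unbound arrays it was 0.94 (adjusted p = 0.0129) for waking minus sleep and −0.089 for sleep deprivation minus waking, and its fraction differences were −1.11 (adjusted p = 0.0262) for waking and 0.25 for sleep deprivation minus waking. With its sign kept, its unbound sleep deprivation minus sleep was then called (0.85, adjusted p = 0.0213). In that setting Fosl2 fraction differences were −0.22 for sleep deprivation minus sleep and −0.62 for sleep deprivation minus waking, and Jund gave 0.11 for bound waking minus sleep and 0.34 for its fraction difference. With 1 array or animal left out, Fos ranged over −0.23 to 0.056 for bound sleep deprivation minus waking, and its fraction differences over −0.20 to 0.17 (waking), −0.16 to 0.22 (sleep deprivation) and −0.17 to 0.22 (sleep deprivation minus waking). Fosl1 ranged over −0.0054 to 0.19 for bound sleep deprivation minus sleep, −0.18 to 0.078 for bound sleep deprivation minus waking and −0.27 to 0.0053 for unbound waking minus sleep. Junb ranged over −0.094 to 0.018 for unbound waking minus sleep and −0.13 to 0.15 for its fraction difference of sleep deprivation minus waking.

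Over all probe sets, unbound sleep deprivation minus waking had 3026 calls, 83.8% of them higher, against 1395 (49.1%) and 1381 (48.9%) under the quantile normalizations, and the share higher for unbound waking minus sleep was 22.4% against 49.8%. For bound minus unbound it was 28.6% against 52.5% over all arrays, for fraction differences 71.7% against 53.4% (waking) and 27.0% against 50.7% (sleep deprivation minus waking). With no filter, 15% to 21.4% were called in the state contrasts. Without the 3 animals, calls were 1605 instead of 2850 (bound waking minus sleep), 660 instead of 1691 (bound sleep deprivation minus waking), 1244 instead of 2269 (unbound waking minus sleep) and 1560 instead of 3026 (unbound sleep deprivation minus waking).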
